A study of Rattus norvegicus with 8 samples.

Results

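Matrix metalloproteinases are zinc-dependent enzymes that cut collagens, elastin, other matrix proteins and proteins at the cell surface, and tissue inhibitors of metalloproteinases block them by binding their active site. The enzymes are made as inactive precursors, so a transcript level does not measure enzyme activity. In injured spinal cord the family is known for matrix breakdown, opening of the blood-spinal cord barrier and scar remodelling, and many cell types, resident and infiltrating, can make its members.

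The 9 genes described here are Mmp2 and Mmp9, the gelatinases, Mmp8, the neutrophil collagenase, Mmp12, the macrophage elastase, Mmp14, a membrane-type enzyme that activates the Mmp2 precursor, Mmp19, and the inhibitors Timp1, Timp2 and Timp3. They were taken by symbol from the list of 32623 genes in the count tables, and each symbol stood for 1 gene. All 9 had counts.

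The counts came from single-cell RNA sequencing of 10 mm of spinal cord from 8-week-old female Wistar rats on day 7 after surgery. The injury was a contusion made by a falling 10 g weight, with drop heights of 12.5 mm (mild), 25 mm (moderate) and 50 mm (severe), and sham rats had a laminectomy without contusion. All 4 groups therefore had the spine opened, no group was without surgery, and each group had 2 libraries, called sham 1, sham 2 and so on. The study's text speaks of as many spinal cords as libraries, which is read here as 1 cord per library, though the labels do not name the animals, and p-values measure the spread between these libraries.

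After removal of low-quality cells and likely doublets, 55452 of 68658 cells were kept, with 23550699 to 99449695 unique molecular identifiers (UMIs, tags by which each captured RNA molecule is counted once) per library. Cells were put into types (gated) by 15 lists of marker genes that hold none of the 9 members. The gates gave 27761 macrophages/microglia, 9911 neutrophils, 4068 oligodendrocytes, 2929 oligodendrocyte precursors, 1915 fibroblasts, 1463 T cells/NK cells and 9 smaller types, and 4498 cells stayed ungated. A level is a gene's UMIs divided by all UMIs in the gated cells of 1 type and library, scaled to counts per 1000000 (CPM), and it is compared within a gene only, in libraries with at least 20 cells of the type. Some defining markers were at 0 in gated astrocytes (Ntsr2, Slc6a11), neurons (Slc17a6, Slc32a1) and oligodendrocyte precursors (Neu4). Pairs of libraries shared 5 to 40 cell barcodes. Sham 1 stood apart: it held 4985 of the neutrophils and 274 of the fibroblasts against 1 and 4 in sham 2, its median of 2739 UMIs per cell was the lowest, and the 12 neutrophil markers summed to 7376 CPM in its macrophages/microglia against 221 to 1984 CPM in the other libraries. Mmp8 was between 12.6 and 62.4 CPM in each of its types other than neutrophils. Only sham 1 had at least 20 neutrophils or fibroblasts in the sham group, so these types have no comparison with sham.

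The members divided by cell type. Fibroblasts held 55.1% of Timp1 and 62.3% of Timp3 UMIs while being 3.45% of kept cells. Macrophages/microglia held 64.4% of the UMIs of all genes, and of the members they held 95.5% of Mmp12, 90.2% of Timp2 and, nearer to that share, 70.7% of Mmp14 UMIs. Neutrophils held 90.2% of Mmp8 and 85.2% of Mmp9 UMIs beside 3.86% of the UMIs of all genes. Mmp2 came mostly from macrophages/microglia (48.4%, below their share of all UMIs) and fibroblasts (41.1%, beside 5.73% of all UMIs). Mmp19 was the sparsest member with 1641 UMIs in all, of which macrophages/microglia held 44.8%, fibroblasts 23.3% and oligodendrocyte precursors 17.0%.

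**Figure D1:**
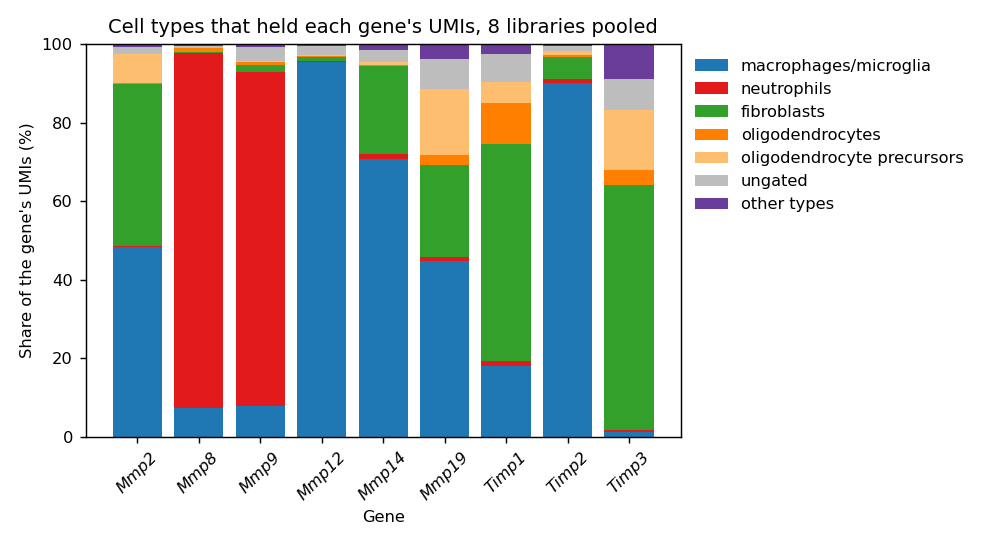
Share of each member's UMIs by gated cell type, pooled over the 8 libraries; each bar is 1 gene and adds to 100% of its UMIs, and the colours are cell types. Neutrophils fill most of the Mmp8 and Mmp9 bars, macrophages/microglia most of the Mmp12, Mmp14 and Timp2 bars, and fibroblasts most of the Timp1 and Timp3 bars.

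**Figure D2:**
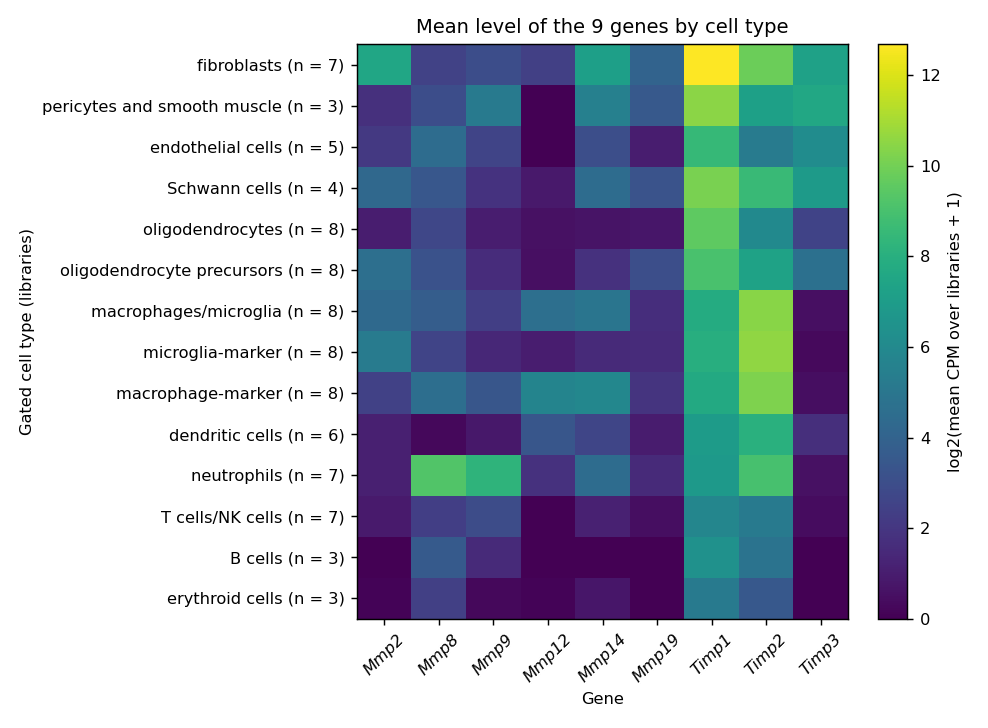
Colour map of the level of each member (columns) in each gated cell type and in the microglia-marker and macrophage-marker cells (rows), as log2 of 1 plus the mean CPM over the libraries with at least 20 cells, whose number stands beside each type. Timp1 is highest in fibroblasts, at a mean of 6602 CPM, and Timp2 in macrophages/microglia and their subsets, at 1364 CPM in all of them together.

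Of the gelatinases, Mmp2 was highest in fibroblasts. Its level there was 279 CPM in sham 1, 274 and 218 in mild, 188 and 89.1 in moderate and 103 and 127 in severe injury. In macrophages/microglia it was 15.4 and 50.9 CPM in sham, 17.1 and 20.4 in mild, 22.2 and 14.8 in moderate and 4.06 and 7.30 in severe injury. Every fibroblast value lay above every macrophage/microglia value. The difference within libraries was 3.60 ± 0.66 on the log2(CPM + 1) scale (SD, n = 7 libraries) in an exact two-sided sign-flip permutation test with Benjamini-Hochberg adjusted p = 0.0156 over the 9 members, the smallest p that 7 libraries allow. Oligodendrocyte precursors had 10.3 to 32.5 CPM, and their mean of 23.9 ± 7.05 CPM (SD, n = 8) differed from the 19.0 ± 14.2 CPM (SD, n = 8) of macrophages/microglia by less than the spread.

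Mmp9 was higher in neutrophils than in macrophages/microglia in all 7 libraries that had neutrophils. Its level in neutrophils was 488 CPM in sham 1, 385 and 89.3 in mild, 276 and 321 in moderate and 365 and 239 in severe injury, and in macrophages/microglia of the 8 libraries it was between 0.05 CPM in sham 2 and 19.1 CPM in sham 1. The 2 types did not overlap, and mild 2 was the low library among neutrophils. The difference within libraries was 6.11 ± 0.78 on the log2(CPM + 1) scale (SD, n = 7, exact sign-flip permutation test, adjusted p = 0.0156). Of 10349 Mmp9 UMIs, 7248 were in the cells of sham 1, so the pooled neutrophil share of 85.2% rests largely on that library.

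Mmp8 was carried by neutrophils too, and 1 library set its total. Sham 1 neutrophils had 3047 CPM, against 132 and 66.1 in mild, 399.5 and 175 in moderate, and 158 and 215 in severe injury. Of 49138 Mmp8 UMIs, 43301 were in the neutrophils of sham 1, so the pooled share of 90.2% rests on that library. In the injured libraries macrophages/microglia held between 29.7% and 96.1% of the Mmp8 UMIs. In this type its level was 35.2 and 3.43 CPM in sham, 6.17 and 19.7 in mild, 14.9 and 7.42 in moderate and 6.94 and 7.0 in severe injury. Neutrophils were higher in all 7 libraries, by 4.35 ± 1.38 on the log2(CPM + 1) scale (SD, n = 7, exact sign-flip permutation test, adjusted p = 0.0156).

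Mmp8 was also set against the main neutrophil transcripts. Per 1000 UMIs of S100a8 and S100a9, which code for abundant neutrophil proteins, neutrophils held 1.80 to 11.5 Mmp8 UMIs. Sham 1 was within that range in macrophages/microglia (8.28) and in T cells/NK cells (6.68). Macrophages/microglia of sham 2 held 22.3 and those of the 6 injured libraries 35.3 to 332. T cells/NK cells of injured libraries were at 41.7 and 90.9 in mild 1 and severe 2, from 1 Mmp8 UMI each, and at 0 in the other 4. The Mmp8 UMIs were concentrated there: 870 of 27761 macrophages/microglia (3.13%) had any, and the top 1% of cells (278) held 78.2% of them.

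Mmp12 had the largest share of its UMIs in 1 type among the 9 members. In macrophages/microglia its level was 1.84 and 10.9 CPM in sham, 22.7 and 30.9 in mild, 26.4 and 51.4 in moderate and 19.0 and 28.9 in severe injury, and all 6 injured libraries lay above both sham libraries. In neutrophils it was between 0 and 9.74 CPM, lower in all 7 libraries by 3.26 ± 1.76 on the log2(CPM + 1) scale (SD, n = 7, exact sign-flip permutation test, adjusted p = 0.0156). Dendritic cells were second in level, with a mean of 9.43 ± 11.4 CPM (SD, n = 6) and up to 31.4 CPM. These were the 6 injured libraries, since sham 1 and sham 2 had 3 and 8 dendritic cells. The mean of macrophages/microglia, 24.0 ± 14.7 CPM (SD, n = 8), includes both sham libraries. The 2 means thus cover unlike libraries, and the difference between these types was not tested. T cells/NK cells had no Mmp12 UMI in 7 libraries, which allows 1.56 to 27.6 CPM per library at 3 counts. Few cells carried it: 1260 of 27761 macrophages/microglia (4.54%) had an Mmp12 UMI, the top 1% of cells held 68.9% of them, and 1 cell had 95.

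Mmp8 and Mmp12 lie on the same rat chromosome. Pooled over all libraries, their counts came mainly from different types, and for Mmp8 this rests on the sham library rich in neutrophils. In the injured libraries macrophages/microglia, the main type of Mmp12, also held a substantial part of the Mmp8 counts, as given above. To show both genes at their starts, the 120 bases before each are printed 5′ to 3′ on the gene's strand from RefSeq promoters (GRCr8). Capitals mark TGANTCA, the AP-1 motif, which reads the same on both strands. RefSeq's table held 5 of the 9 members, Mmp8, Mmp12, Timp1, Timp2 and Timp3.

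Mmp12, chr8:12866532-12866651, plus strand: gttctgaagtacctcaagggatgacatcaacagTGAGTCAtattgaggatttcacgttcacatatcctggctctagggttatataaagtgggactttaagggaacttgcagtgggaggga

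Mmp8, chr8:13008770-13008889, plus strand: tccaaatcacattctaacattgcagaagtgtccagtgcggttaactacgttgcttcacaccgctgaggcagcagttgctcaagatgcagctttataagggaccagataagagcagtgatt

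The Mmp12 match, TGAGTCA, starts 87 bases before the gene's start. In windows of 300 bases, 7.33% of 33469 promoters held the motif, and of the 5 members only Mmp12 did. A match is a run of letters and not a measured binding site.

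Most Mmp14 UMIs were in macrophages/microglia and fibroblasts. Its mean was 29.9 CPM in macrophages/microglia (n = 8 libraries) and 44.7 CPM in pericytes and smooth muscle (n = 3). Schwann cells (n = 4) and neutrophils (n = 7) had means of 21.7 and 21.5 CPM. Fibroblasts had 133 CPM in sham 1, 163 and 190.3 in mild, 219 and 161 in moderate and 65.7 and 72.8 in severe injury. Macrophages/microglia had 12.7 and 1.65 CPM in sham, 66.0 and 37.0 in mild, 38.7 and 34.1 in moderate and 20.4 and 28.8 in severe injury. All 6 injured libraries were above both sham libraries in macrophages/microglia, while the severe fibroblasts were the lowest of the 7. Oligodendrocyte precursors had at most 6.09 CPM, lower than macrophages/microglia in all 8 libraries by 3.03 ± 0.79 on the log2(CPM + 1) scale (SD, n = 8, exact sign-flip permutation test, adjusted p = 0.0156). The 2 moderate libraries with at least 20 gated astrocytes had 143 and 86.3 CPM in these cells.

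Mmp19, which cuts basement membrane proteins, was at low levels everywhere. It was 8.90 CPM in sham 1 fibroblasts and 7.62 to 25.6 CPM in fibroblasts of injured libraries. In oligodendrocyte precursors it was 4.62 and 4.73 CPM in sham and 6.47 to 9.06 CPM after injury. Macrophages/microglia had 1.35 to 2.95 CPM, below the precursors in all 8 libraries by 1.36 ± 0.41 on the log2(CPM + 1) scale, a difference of -1.36 as tested (SD, n = 8, exact sign-flip permutation test, adjusted p = 0.0156).

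Timp1, the inhibitor best known for being induced in injury and inflammation, was a fibroblast transcript first. Fibroblasts had 13707 CPM in sham 1, 7663 and 4722 in mild, 4124 and 4271 in moderate and 5391 and 6333 in severe injury. Macrophages/microglia had 531 and 154 CPM in sham, 249.6 and 106 in mild, 184 and 171 in moderate and 202 and 211 in severe injury. Sham 1 was highest in both types. Fibroblasts were higher in all 7 libraries by 4.83 ± 0.32 on the log2(CPM + 1) scale (SD, n = 7, exact sign-flip permutation test, adjusted p = 0.0156).

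Timp1 was also carried by the oligodendrocyte lineage. Oligodendrocytes had 509.7 and 385 CPM in sham, 962 and 899 in mild, 677 and 1009.5 in moderate and 626 and 905 in severe injury, and every injured library was above both sham libraries. Oligodendrocyte precursors had 376 to 691 CPM, and sham and injured libraries overlapped. Gated astrocytes had 1705 and 1709 CPM in the 2 moderate libraries.

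Timp2, which binds the Mmp2 precursor together with Mmp14, was highest in macrophages/microglia and varied little. Its level was 1446 and 1295 CPM in sham, 1465 and 1833 in mild, 1378 and 1198 in moderate and 897 and 1400.4 in severe injury. Oligodendrocyte precursors had 93.0 to 219 CPM, lower in all 8 libraries by 3.13 ± 0.12 on the log2(CPM + 1) scale (SD, n = 8, exact sign-flip permutation test, adjusted p = 0.0156). Fibroblasts followed macrophages/microglia with a mean of 899 ± 354 CPM (SD, n = 7) and neutrophils with 505 ± 239 CPM (SD, n = 7). Relative to the C1q genes, which code for complement proteins of macrophages/microglia, Timp2 was at 0.0827 to 0.175 UMIs per C1q UMI in macrophages/microglia and 0.600 to 8.48 in neutrophils.

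Timp3, which stays bound to the matrix, was highest in fibroblasts, pericytes and smooth muscle, Schwann cells and endothelial cells. Oligodendrocyte precursors, at a lower mean of 24.9 CPM, held 15.4% of its UMIs, beside 6.92% of the UMIs of all genes. Fibroblasts had 269 CPM in sham 1, 183 and 242 in mild, 126 and 96.9 in moderate and 78.2 and 68.5 in severe injury. Pericytes and smooth muscle had 364, 151 and 76.6 CPM in the 3 libraries with enough cells (sham 1, sham 2 and severe 2), Schwann cells had 349 CPM in sham 1 and 11.4 to 70.0 CPM in injured libraries, and endothelial cells had 30.5 to 124 CPM. Neighbours among these 4 types, in the order of their means, differed by less than the spread, and endothelial cells exceeded oligodendrocyte precursors by more than theirs. The libraries behind these means differ between the types, and the order was not tested. Macrophages/microglia had at most 2.39 CPM, lower than fibroblasts in all 7 libraries by 6.61 ± 0.61 on the log2(CPM + 1) scale (SD, n = 7, exact sign-flip permutation test, adjusted p = 0.0156).

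**Figure D3:**
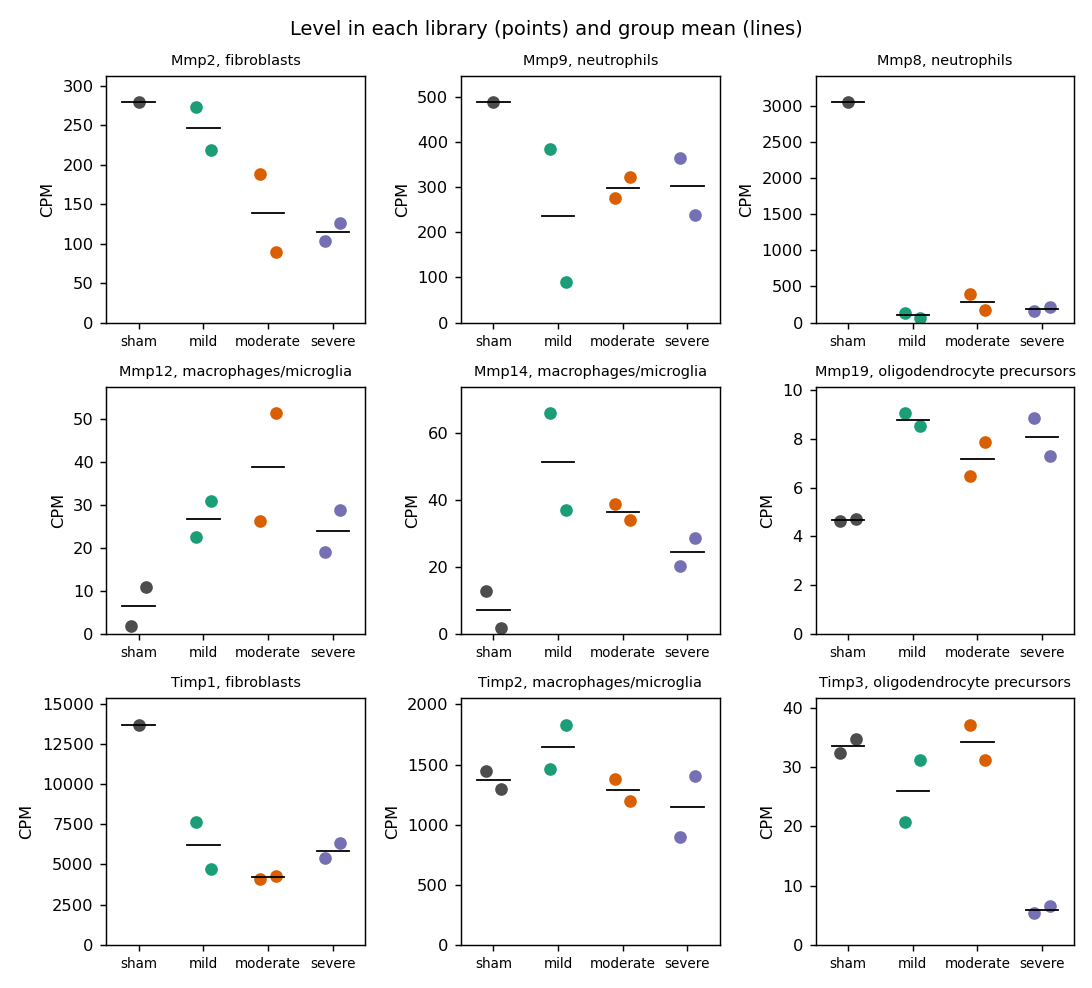
Level of each member in 1 cell type by group, in CPM on a linear axis that differs between panels; each point is 1 library and each line the mean of the group's libraries. Mmp12 and Mmp14 in macrophages/microglia lie above both sham points in all 6 injured libraries, Timp3 in oligodendrocyte precursors is lowest in the 2 severe libraries, and Mmp8 in neutrophils is highest in sham 1 at 3047 CPM.

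Shares of cells with a UMI were compared after each cell was thinned at random to 500 UMIs. Timp1 was then seen in 75.5% ± 2.13 of fibroblasts (SD, n = 7), against 2.35% ± 3.75 of T cells/NK cells (SD, n = 7), taken as a type that should lack it. Timp2 was seen in 44.8% ± 6.72 of macrophages/microglia (SD, n = 8) against 1.65% ± 1.30 of T cells/NK cells. Mmp9 was seen in 12.4% ± 4.28 and Mmp8 in 10.9% ± 16.2 of neutrophils (SD, n = 7), against 0.148% and 0.200% of T cells/NK cells. Without thinning the same shares were 98.7%, 94.9%, 23.6% and 16.8%. The mean for Mmp8 includes 47.3% in sham 1, and the median over libraries was 4.74%.

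Macrophages/microglia were split by marker lists of resident microglia (P2ry12, Tmem119 and others) and of macrophages (Ccr2, F13a1, Fn1, Mrc1, Cd163 and others). The macrophage list is not limited to infiltrating cells, and 8 of its 11 genes were measured. Microglia-marker cells numbered 7069, macrophage-marker cells 9021, and 11671 cells were in neither, with 814 cells within 10% of the cutoff. Macrophage-marker cells were 12.01% and 2.20% of macrophages/microglia in sham, 41.3% and 24.7% in mild, 31.2% and 56.5% in moderate and 49.6% and 28.0% in severe injury. Microglia-marker cells were 27.0% and 78.7% in sham and 9.78% to 28.1% after injury. The sham macrophage-marker sums rest on 88 and 46 cells.

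Mmp2 was higher on the microglia side and Mmp12 and Mmp14 on the macrophage side. Mmp2 was at 22.2 and 54.5 CPM in sham microglia-marker cells, 43.3 and 40.1 in mild, 50.1 and 40.4 in moderate and 29.4 and 19.3 in severe injury. In macrophage-marker cells it was at 0.95 and 19.1 CPM in sham, 2.37 and 2.21 in mild, 3.94 and 6.07 in moderate and 0.59 and 1.05 in severe injury. Microglia-marker cells were higher in 8 of 8 libraries, by 3.24 ± 0.86 on the log2(CPM + 1) scale (SD, n = 8, exact sign-flip permutation test, adjusted p = 0.0176 over the 9 members).

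Mmp12 in macrophage-marker cells was at 9.48 and 123 CPM in sham, 36.5 and 68.2 in mild, 45.4 and 76.4 in moderate and 14.8 and 42.1 in severe injury. In microglia-marker cells it was at 0 to 2.06 CPM. The sham 2 value rests on 58 UMIs in 46 cells and was the highest of the 8. Microglia-marker cells were lower in 8 of 8 libraries, with a difference of -4.49 ± 1.08 on the log2(CPM + 1) scale (SD, n = 8, exact sign-flip permutation test, adjusted p = 0.0176).

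Mmp14 in macrophage-marker cells was at 50.3 and 23.3 CPM in sham, 112 and 78.7 in mild, 69.0 and 48.4 in moderate and 25.8 and 47.1 in severe injury, and in microglia-marker cells at 0.11 to 3.55 CPM. The difference was -4.32 ± 0.59 (SD, n = 8, exact sign-flip permutation test, adjusted p = 0.0176). Mmp8 and Mmp9 were lower in microglia-marker cells in 7 of 8 libraries, with differences of -2.99 and -1.36 (exact sign-flip permutation test, n = 8, adjusted p = 0.0234 for both). From mild 1 to severe 2 in order, macrophage-marker cells held 148, 24, 107, 122, 28 and 46 Mmp9 UMIs. All kept cells of these libraries held 1001, 97, 327, 545, 724 and 405. Timp2 was higher in microglia-marker cells in 8 of 8 libraries by 0.35 ± 0.22 (SD, n = 8, exact sign-flip permutation test, adjusted p = 0.0176). The test did not pass for Mmp19 (-0.28), Timp1 (0.23) or Timp3 (-0.13), with adjusted p between 0.0804 and 0.141 in the same exact permutation test.

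**Figure D4:**
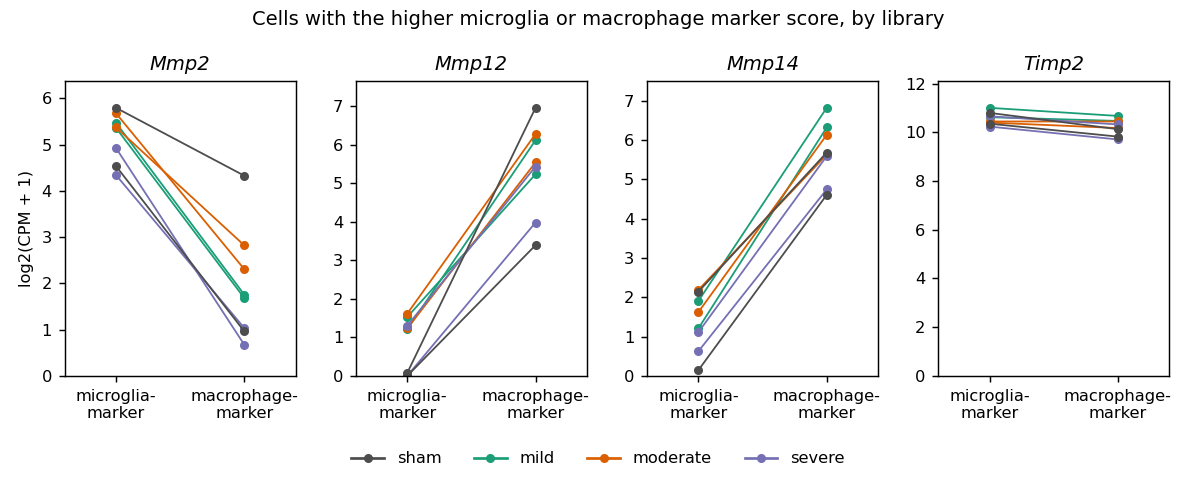
Level of Mmp2, Mmp12, Mmp14 and Timp2 on a log2(CPM + 1) scale in microglia-marker and macrophage-marker cells; each line joins the 2 values of 1 library and its colour is the group. From microglia-marker to macrophage-marker cells all 8 lines fall for Mmp2 and Timp2, though by little for Timp2 (0.35 on average), and all 8 rise for Mmp12 and Mmp14.

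Effects of injury were tested on UMIs summed per library and type, with edgeR's quasi-likelihood test and Benjamini-Hochberg adjustment over all genes tested. The test gives no standard error of its own. SE here is the size of the log2 fold change divided by the square root of the test's F statistic, an approximation. The comparisons with sham share the 2 sham libraries. Macrophages/microglia came first. After mild injury 1 of 9 members was called at an adjusted p under 0.05, beside 6.87% of 13313 genes tested. This was Mmp14, which rose by a log2 fold change of 3.19 (SE 0.73, edgeR adjusted p = 0.0434), beside 3.87% of genes called higher. The call was made in 7 of 18 alternative settings and the change was positive in all 18. It was lost when any 1 injured library was left out, with normalization by library size only, with the replicate number as a block, with only the sham and mild groups in the fit and within either marker set. Without sham replicate 1 the log2 fold change was 4.93. Mmp12 had a log2 fold change of 1.98 after mild injury (edgeR adjusted p = 0.114).

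After moderate injury 0 of 9 members were called by edgeR beside 2.34% of genes, with 2 at an unadjusted p under 0.05, as were 23.1% of genes, and 2 called by DESeq2, as were 10.7%. These were Mmp14 (log2 fold change 2.66, SE 0.72, edgeR adjusted p = 0.0909) and Mmp12 (2.47, SE 0.72, edgeR adjusted p = 0.105). After severe injury 0 of 9 were called by edgeR beside 8.86% of genes, with 3 at an unadjusted p under 0.05, as were 30.1% of genes, and 3 called by DESeq2, as were 18.1%. Mmp14 had a log2 fold change of 2.53 (edgeR adjusted p = 0.064), Mmp12 of 2.23 (edgeR adjusted p = 0.0869) and Mmp2 of -2.11 (edgeR adjusted p = 0.0701). The members' shares at an unadjusted p under 0.05 were near those of all genes. Severe against mild injury gave 0 of 9 members in edgeR, none at an unadjusted p under 0.05 and 0 in DESeq2, beside 2.44%, 20.2% and 8.65% of genes. With Timp3 left out, the log2 fold changes ran from -1.30 (Mmp2) to 0.62 (Timp1). Between these were Mmp14 at -0.66, Mmp8 at -0.50, Mmp9 at -0.34, Mmp19 at -0.20, Timp2 at -0.12 and Mmp12 at 0.25 (edgeR adjusted p of 0.271 or more for all of them). Timp2 in macrophages/microglia had log2 fold changes of 0.39, -0.01 and 0.27 against sham in mild, moderate and severe injury, and Timp1 of -0.75, -0.78 and -0.13, with edgeR adjusted p of 0.354 or more. In the same order Mmp8 had -0.29, -0.53 and -0.79, Mmp9 -1.57, -1.38 and -1.91, and Mmp19 0.31, 0.42 and 0.12 (edgeR adjusted p of 0.445 or more). Mmp2 had -0.81 and -0.86 after mild and moderate injury, and Timp3 -1.93 and -1.26 (edgeR adjusted p of 0.383 or more). Timp3 had 1 and 2 UMIs in the severe libraries against 13 and 0 in sham, so no fold is given for it in either comparison of severe injury.

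The share of macrophage-marker cells moved with these differences, so the same test was run in each marker set, an alternative chosen after the data were seen. Within macrophage-marker cells Mmp12 had log2 fold changes of -0.03, 0.12 and -0.54 in mild, moderate and severe injury against sham (edgeR adjusted p of 0.76 or more). These rest on sham 2, whose 123 CPM lay above all 6 injured libraries, while the 9.48 CPM of sham 1 lay below all 6. Mmp14 had 1.43 (SE 0.44), 0.70 and 0.41 there, with edgeR adjusted p of 0.0834 after mild injury. Mmp9 had -2.83, -2.66 and -3.29 there (edgeR adjusted p of 0.0915, 0.161 and 0.0731). These rest on sham 1, with 57 Mmp9 UMIs (54.1 CPM) against 0 UMIs in sham 2. In the same cells Mmp2 had -1.57, -0.49 and -2.60, Mmp8 -0.46, -1.42 and -1.97, and Mmp19 -0.84, -0.44 and -0.91. Timp1 had -0.56, -0.59 and -0.03 and Timp2 0.74, 0.43 and 0.56, and for these 5 genes edgeR adjusted p was 0.151 or more. The sham values behind these folds rest on 1 and 9 UMIs for Mmp2 and on 6 and 1 for Mmp19. Within microglia-marker cells Mmp2 had 0.01, 0.05 and -0.48 (edgeR adjusted p of 0.578 or more). Mmp9 had -2.57 and -1.27 there after mild and moderate injury. It had 24 and 1 UMIs in the sham libraries, in this order, and 1 and 2 UMIs in the severe libraries. Mmp14 had 0.89, 1.2 and 0.29, Mmp19 0.06, -0.34 and 0.09, Timp1 -1.02, -0.93 and -0.09, and Timp2 0.24, -0.24 and 0.22 (edgeR adjusted p of 0.250 or more). The sham values of Mmp14 rest here on 10 and 2 UMIs. Mmp8 had -4.55 and -4.73 after mild and moderate injury (edgeR adjusted p of 0.0734 and 0.121) and no UMI in the severe libraries, and its sham level was 37.2 CPM in sham 1 and 1.34 CPM in sham 2. No member was called in either set, of 8 tested in each (Timp3 was too low): beside 2.75%, 0.266% and 1.48% of genes in microglia-marker cells and 6.33%, 1.85% and 4.99% in macrophage-marker cells, after mild, moderate and severe injury. At an unadjusted p under 0.05 there were 2, 2 and 2 members in microglia-marker and 3, 1 and 3 in macrophage-marker cells, beside 25.6%, 18.3% and 19.4% and 25%, 17.2% and 23% of genes. Mmp12 had 1 UMI in all sham microglia-marker cells, so no fold is given for it there. Its level was 0 and 0.05 CPM in sham, 0 in severe 1 and 1.31 to 2.06 CPM in the other 5 injured libraries, with edgeR adjusted p of 0.0582, 0.103 and 0.106 for a rise after mild, moderate and severe injury.

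**Figure D5:**
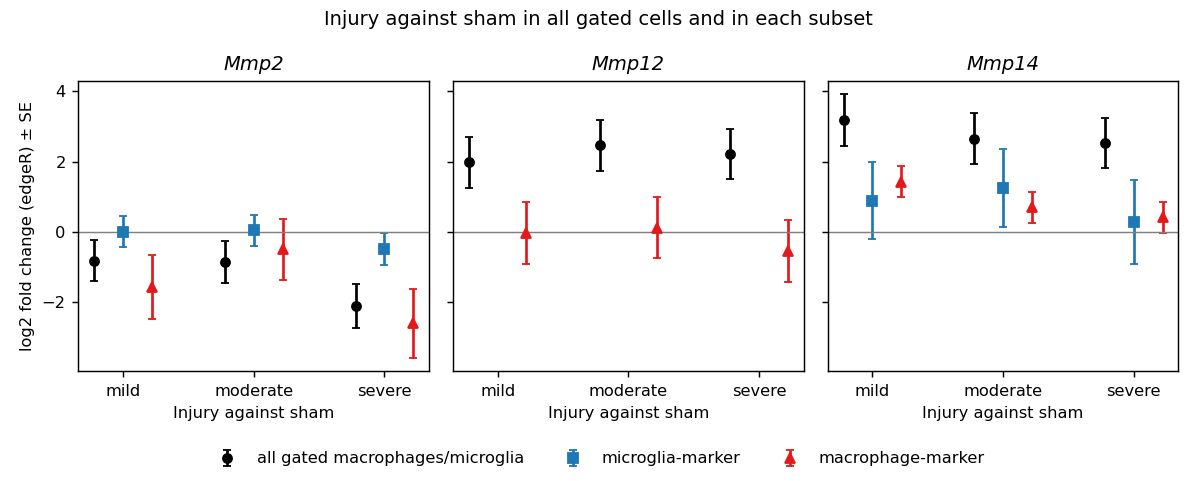
Log2 fold change against sham from edgeR, with bars of 1 SE, for Mmp2, Mmp12 and Mmp14 in all macrophages/microglia and in the 2 marker sets, after mild, moderate and severe injury; the horizontal line is no change, and microglia-marker cells are left out for Mmp12. Mmp12 is at 1.98 to 2.47 in all macrophages/microglia and at -0.54 to 0.12 in macrophage-marker cells. The sham values rest on 1 and 9 UMIs for Mmp2 in macrophage-marker cells and on 10 and 2 for Mmp14 in microglia-marker cells.

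In fibroblasts, with 1 sham library, severe was compared with mild injury. By edgeR 0 of 9 members were called beside 1.97% of 11783 genes, with 3 at an unadjusted p under 0.05, as were 21.9% of genes, and 2 called by DESeq2, as were 4.96%. The 2 called by DESeq2 were Timp3, with a log2 fold change of -1.18 (SE 0.24, edgeR adjusted p = 0.0571), and Mmp14, with -1.0 (SE 0.23, edgeR adjusted p = 0.0767). Fibroblasts of severe libraries also held more pericyte and smooth muscle marker UMIs, 1856 and 1230 CPM summed over 11 markers against 368 and 310.2 in mild libraries, and their part in these values was not tested. Timp1 had a log2 fold change of 0.27 (edgeR adjusted p = 0.595), Mmp9 of -1.97, Mmp2 of -0.75, Mmp19 of -0.58 and Timp2 of 0.66 (edgeR adjusted p of 0.214 or more). Mmp8 and Mmp12 had 0 to 8 UMIs in each of these 4 libraries, so no fold is given for them. Whether the members changed differently with injury in fibroblasts and in macrophages/microglia was tested over 6 injured and 1 sham library, where the smallest exact permutation p is 0.143, so no member could pass.

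In oligodendrocyte precursors Timp3 was at 32.3 and 34.7 CPM in sham, 20.8 and 31.2 in mild, 37.2 and 31.2 in moderate and 5.31 and 6.53 in severe injury. The severe libraries were the lowest of the 8 and did not overlap the others. The sums rest on few precursors, 64 and 70 cells in sham and 62 and 224 cells in severe injury. Of 6 members tested, Timp3 was called after severe injury beside 9.8% of 11571 genes, with a log2 fold change of -2.12 (SE 0.41, edgeR adjusted p = 0.0102), and in severe against mild injury beside 5.12%, with -1.76 (SE 0.34, edgeR adjusted p = 0.0106). By edgeR 0 of 6 were called after mild injury (6.08% of genes) and after moderate injury (6.89%), with 1 at an unadjusted p under 0.05 in each (24.6% and 24.1% of genes) and 0 in DESeq2 (9.53% and 8.77%). In severe against mild injury 4 of 6 were at an unadjusted p under 0.05, as were 22.8% of genes: Timp3, Mmp2 (-0.86), Timp1 (0.73) and Mmp14 (-1.40), the last 3 with edgeR adjusted p of 0.148 to 0.194. Without severe replicate 2 the call was lost in both comparisons (edgeR adjusted p = 0.114 and 0.116), and without mild replicate 2 the severe against mild call was lost (0.127). Against sham, in mild, moderate and severe order, Mmp2 had log2 fold changes of 0.57, 0.27 and -0.29, Mmp19 of 0.90, 0.60 and 1.04, Timp1 of -0.13, 0.02 and 0.60 and Timp2 of 0.36, -0.21 and -0.08 (edgeR adjusted p of 0.223 or more), and Timp3 had -0.36 and 0.02 after mild and moderate injury. In severe against mild injury Mmp19 had 0.14 and Timp2 -0.43. Mmp8, Mmp9 and Mmp12 were too low to be tested.

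Fibroblast marker UMIs in these precursors were also lowest in the severe libraries, and among the other libraries they did not follow Timp3. Summed over 11 markers they were at 5223 and 549 CPM in sham, 436 and 758 in mild, 397 and 356 in moderate and 163 and 66.3 in severe injury, and their part in the Timp3 result was not tested. Per 1000 fibroblast marker UMIs, Timp3 was at 32.6 to 98.5 UMIs in the precursors of 7 libraries and 6.19 in sham 1, against 2.78 to 11.2 in fibroblasts. Mmp14 had no UMI in the precursors of either sham library, where 3 counts would be 6.93 and 4.73 CPM, and was at 0.89 to 6.09 CPM after injury, so no fold is given. For a rise after mild, moderate and severe injury its edgeR adjusted p was 0.0832, 0.131 and 0.229. Such floors cover counting error only.

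In neutrophils Timp1 was at 94.8 and 169 CPM in mild and 27.0 and 31 in severe injury, and at 327 CPM in sham 1. The mild and severe libraries did not overlap. Of 6 members tested in severe against mild injury only Timp1 was called, beside 5.06% of 7670 genes, with a log2 fold change of -1.71 (SE 0.41, edgeR adjusted p = 0.0279). The call was lost without mild replicate 1 (edgeR adjusted p = 0.0509), mild replicate 2 (0.200), severe replicate 1 (0.109) or severe replicate 2 (0.0514), and with no doublet removal (0.0624). Macrophage/microglia markers in neutrophils, summed over 11 genes, were at 1841 and 1990 CPM in mild and 643 and 1231 in severe injury. Fibroblast markers were at 243 and 152 CPM in mild and 193 and 208 in severe neutrophils. Per fibroblast marker UMI, neutrophils held 0.390 and 1.11 Timp1 UMIs in mild and 0.140 and 0.149 in severe injury. Fibroblasts held 0.307 and 0.219 in mild and 0.191 and 0.296 in severe injury. The part of RNA from either type in the result was not tested. Mmp8 and Mmp9 had log2 fold changes of 1.26 (edgeR adjusted p = 0.155) and 0.73 (edgeR adjusted p = 0.476), Mmp14 had -1.14 (edgeR adjusted p = 0.283) and Timp2 had -0.21 (edgeR adjusted p = 0.827). Mmp12 had 1 and 0 UMIs in mild and 0 in severe neutrophils, so no fold is given, and Mmp2, Mmp19 and Timp3 were too low to be tested.

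The other genes of the pathway were followed in 4 lists of 49 genes: further metalloproteinases and Timp4, ADAM and ADAMTS proteases, the plasminogen system, and activators, partners and regulators. In macrophages/microglia 32 were tested, of which 3 rose and 1 fell after mild, 1 rose and 1 fell after moderate, and 4 rose and 1 fell after severe injury, beside the 6.87%, 2.34% and 8.86% of all genes called. Furin, a protease that activates membrane-type metalloproteinases, rose from 44.8 and 39.0 CPM in sham to 115 and 80.6 CPM after mild and 125 and 73.3 CPM after severe injury, with log2 fold changes of 1.34 after mild (edgeR adjusted p = 0.0476) and 1.75 after severe injury (edgeR adjusted p = 0.0207). Mmp7, matrilysin, rose from 0.73 and 1.28 CPM to 14.8 and 26.8 CPM after mild and 7.23 and 10.7 CPM after severe injury (log2 fold changes 4.30 and 3.49, edgeR adjusted p = 0.0281 and 0.0351). Mmp28 fell from 2.02 and 3.80 CPM to 0.18 to 0.51 CPM, with log2 fold changes of -2.58, -3.17 and -3.17 after mild, moderate and severe injury (edgeR adjusted p of 0.046, 0.0451 and 0.0282).

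Plau, urokinase, which makes plasmin, rose after moderate (2.83) and severe injury (2.18, edgeR adjusted p of 0.0368 and 0.0367). Its level was 5.87 and 10.4 CPM in sham and 49.5 and 67.7 after moderate and 21.2 and 33.5 after severe injury. Adamts2, which trims procollagens, was called higher after mild and severe injury, with 1 and 3 UMIs in the sham libraries. Each of these calls was lost under at least 3 alternatives. Of 18 settings Furin was called in 6 after mild and 15 after severe injury, Mmp7 in 13 and 10, and Plau in 10 after moderate and 11 after severe injury. Of 17 settings Mmp28 was called in 7, 7 and 10 and Adamts2 in 8 and 13.

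In oligodendrocyte precursors 28 of the 49 genes were tested: 1 rose and 2 fell after mild, 4 rose and 2 fell after moderate, and 1 rose and 2 fell after severe injury, beside the 6.08%, 6.89% and 9.8% of all genes called. Mmp16, another membrane-type enzyme, fell from 187 and 103 CPM in sham to 66.3 and 66.7 in mild, 54.9 and 60.8 in moderate and 28.3 and 21.4 in severe injury (log2 fold changes -1.09, -1.30 and -2.26, edgeR adjusted p of 0.0407, 0.0178 and 0.00253). Timp4, the fourth inhibitor, fell after mild (-1.24, edgeR adjusted p = 0.0318) and moderate injury (-1.88, edgeR adjusted p = 0.00589). Adamts1, Adamts9 and Mmp15 rose after moderate injury by 1.84, 1.93 and 1.01, and Lrp1, a receptor that takes up proteases and inhibitors, fell after severe injury by 1.87 (edgeR adjusted p of 0.0141, 0.0459, 0.034 and 0.00495 in this order). In severe against mild injury Mmp16 and Mmp15 fell by 1.17 and 1.27 (edgeR adjusted p of 0.0379 and 0.0115), and these were the 2 of 28 called beside 5.12% of all genes. Of 16 alternative settings Mmp16 was called in 6, 12 and 15 against sham and in 8 against mild injury, Timp4 in 7 and 15, Adamts9 in 7, Adamts1 in 14, Lrp1 in 15, and Mmp15 in 8 against sham and 12 against mild injury.

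In fibroblasts 0 of 35 pathway genes were called by edgeR in severe against mild injury, with 8 at an unadjusted p under 0.05 and 1 called by DESeq2 (Plat, a plasminogen activator). Of all genes 1.97%, 21.9% and 4.96% were, in this order. In neutrophils 1 of 19 rose and 2 fell, beside 5.06% of all genes called. Lcn2, whose protein binds Mmp9, was at 18.7 and 0 CPM in mild and 175 and 162 in severe injury (log2 fold change 4.05, edgeR adjusted p = 0.00373). The granule gene Ngp, chosen after its values were seen, was at 774 and 457 CPM in severe and at 0 in both mild libraries. Other neutrophil markers went both ways. Camp was at 225 and 79.3 CPM in mild and 1013 and 488 in severe injury. Slpi was at 18057 and 22332 CPM in mild and 8918 and 7840 in severe injury, and Il1r2 at 1032 and 1230 against 790 and 530. Adam8 and Adam15 fell by 2.15 and 2.03 (edgeR adjusted p of 0.041 and 0.0145). Of 15 alternative settings Lcn2 was called in 15, Adam15 in 13 and Adam8 in 10.

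Genes with the most similar pattern to each member were ranked by Pearson's r of log2(CPM + 1) over 72 sums of library and type in 14 types, among 7799 genes. The sums share libraries and free RNA, so r is a description. Mmp8 went most closely with Retnlg (0.93) and S100a8 (0.93), Mmp9 with Elane (0.82) and Pglyrp1 (0.82), and Mmp12 with Folr2 (0.76), Fabp4 (0.76) and Spp1 (0.74). Mmp14 went with Fn1 (0.78), Itga5 (0.76) and Ckap4 (0.76), and Mmp19 with Prrx1 (0.86), Efemp2 (0.82) and Numbl (0.81). Mmp2 went with Gask1b (0.87) and Kazald1 (0.80), Timp1 with Gpx8 (0.88), Gstm3 (0.83) and Pmp22 (0.83), Timp2 with Lrp1 (0.82), Cd14 (0.81) and Fam20c (0.81), and Timp3 with Nr2f2 (0.95), Nid1 (0.94) and Lama4 (0.92). For Mmp2, Mmp8 and Mmp9 the third gene was AABR07068316.1 (0.79), AABR07034362.2 (0.92) and AABR07020463.1 (0.81), which have no further name here. S100a8, Fn1 and Fabp4 are themselves markers used in the gates.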

How the data were processed

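Droplet-based single-cell RNA was measured in 8 libraries, grouped by their labels. The authors deposited whole-number UMI counts per gene and cell, made with Cell Ranger on Rnor_6.0 per the submitters' processing notes (version 5.0.1 per the file headers), without normalization or pooling. The members and lists were chosen with earlier results of these data known.

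Cells with over 10% mitochondrial UMIs were removed, then, within each library, the 7.7% scoring highest in Scrublet (scanpy 1.11.5, a tool chosen here), then cells beyond the mean ± 2 SD of UMIs or detected genes. A cell was gated to the list with the highest score if at least 3 of its markers were detected and its score was at least 1.25 times the next. Scores are means of log values per 10000 UMIs, each marker scaled to its 95th percentile. Microglia-marker and macrophage-marker cells were split by the same margin. Every member is named in every comparison of injury groups, except severe against mild injury within the marker sets. There 0 of 8 members were called in microglia-marker cells, beside 320 of 11666 genes. In macrophage-marker cells 0 of 8 were called, beside 669 of 11679 genes. Other pathway genes are named where their adjusted p was under 0.05, up to 6 per comparison, except 1 gene that is not reported here, and the 3 most alike genes were taken among those with a mean of at least 10 CPM.

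UMIs were summed per library and type (at least 20 cells). edgeR 4.0.16 (R 4.3.3; filterByExpr, TMM, all groups in 1 fit, threshold 0.05) was tested on simulated counts, where 75.5% of 200 genes changed 4-fold were recovered for macrophages/microglia in severe against sham (12969 genes) and 56.5% for oligodendrocyte precursors (11280 genes), with 2.58% and 6.61% of the calls false. The simulation gave all genes 1 fixed dispersion (spread between libraries), not estimated from these data, and changed only genes with a mean above 20 CPM. In macrophages/microglia Mmp2, Mmp8, Mmp9, Mmp19 and Timp3 had means of 19.0, 12.6, 4.16, 2.15 and 0.45 CPM. In oligodendrocyte precursors Mmp14 and Mmp19 had means of 2.55 and 7.19 CPM. The recovery rates therefore do not cover these members, and for the others they hold only at the simulated spread. Levels of 2 types were compared with exact two-sided sign-flip permutation tests on log2(CPM + 1), a pseudocount of 1 CPM, which understates changes of low genes. Other software was Python 3.11.15, numpy 2.4.6, scipy 1.17.1 and pandas 2.3.3. Alternatives were DESeq2 1.42.0, no filter on low counts, library size normalization, a block for the replicate number, 2 groups only, leaving out each library, at least 5 markers, at least 100 cells, no doublet removal, a mitochondrial limit of 20%, a pseudocount of 10 CPM and thinning to 1000 UMIs.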

Additional observations from a re-analysis of the deposited data

Results flagged for a closer look

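For 3 members, all 6 injured libraries moved one way from the sham mean in one cell type and the opposite way in another. The values are medians over the 6 injured libraries of log2(CPM + 1) minus the sham mean, and the difference between types was not tested. Timp1 was at 1.02 in oligodendrocytes, at -0.57 in macrophages/microglia and at -0.44 in microglia-marker cells. Sham 1 had the highest Timp1 level of the 8 libraries in macrophages/microglia (531 CPM, against 106 to 249.6 in the others). Sham 2 lay below every injured library but mild 2 there, so the fall rests on sham 1. In microglia-marker cells sham 1 and sham 2 were at 585 and 154 CPM, and sham 2 again lay below every injured library but mild 2. Timp3 was at 1.70 in oligodendrocytes, at -0.61 in macrophages/microglia, at -0.57 in microglia-marker cells and at -0.51 in macrophage-marker cells. Timp3 levels behind these values were low: 1.03 to 13.1 CPM in oligodendrocytes of injured libraries against 2.46 and 0 in sham, and 0.03 to 0.35 CPM in macrophages/microglia of injured libraries against 2.39 and 0 in sham. The injured Timp3 values in macrophages/microglia thus lay between the 2 sham values. Mmp19 was at 0.70 in oligodendrocyte precursors and at -0.50 in macrophage-marker cells, where the sham values rest on 6 and 1 UMIs.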

How the results depend on the processing

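The number of genes called moved under most alternatives, leaving out 1 library included, and the cause was not tested.

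In macrophages/microglia after mild injury 914 genes were called, against 2418 with no filter, 324 with the replicate block, 2291 in DESeq2, 0 with 2 groups only and 321 in microglia-marker cells (0 to 1989 without 1 library). The 1 member called became 0 with library size only, the block, 2 groups only and either marker set, and 2 with no filter and in DESeq2 (0 to 3 without 1 library). After moderate injury 311 genes became 1834 with no filter, 137 with the block, 1421 in DESeq2, 0 with 2 groups and 31 in microglia-marker cells (7 to 1328 without 1 library), and the 0 members became 2 with no filter and in DESeq2 (0 to 2 without 1 library). After severe injury 1179 genes became 2495 with library size only, 2548 with no filter, 696 with the block, 2405 in DESeq2, 139 with 2 groups, 173 in microglia-marker and 583 in macrophage-marker cells (187 to 1896 without 1 library), and the 0 members became 1 with library size only, the block and at least 5 markers, 5 with no filter and 3 in DESeq2 (0 to 3 without 1 library). In severe against mild injury 325 genes became 679 with library size only, 1397 with no filter, 176 with the block, 1152 in DESeq2, 1126 with 2 groups and 669 in macrophage-marker cells (41 to 1116 without 1 library), and 0 members became 1 with no filter (0 without 1 library).

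In fibroblasts 232 genes became 788 with library size only, 1456 with no filter, 585 in DESeq2, 99 with 2 groups and 417 with no doublet removal (54 to 247 without 1 library), and 0 members became 2 with library size only, 3 with no filter and 2 in DESeq2 (0 without 1 library). In oligodendrocyte precursors, mild injury gave 703 genes, against 1476 with no filter, 417 with the block, 1103 in DESeq2 and 7 with 2 groups (19 to 1413 without 1 library). Moderate injury gave 797, against 1453 with no filter and 303 with 2 groups (168 to 1100 without 1 library). Severe injury gave 1134, against 1834 with no filter and 484 with 2 groups (34 to 2229 without 1 library). Severe against mild injury gave 593, against 1094 with library size only, 1180 with no filter, 361 with the block, 1083 with 2 groups and 340 with at least 5 markers (125 to 1335 without 1 library). With no filter the members called were 2, 1 and 3 in mild, moderate and severe injury against sham. Without 1 library they were 0 to 1, 0 to 1 and 0 to 3, and 0 to 1 in severe against mild injury. In neutrophils 388 genes became 628 with no filter (58 to 747 without 1 library), and the 1 member called became 0 with no doublet removal (0 to 1 without 1 library).

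Directions turned for Mmp2 in microglia-marker cells (0.0072 and 0.053 after mild and moderate injury, and -1.47 to 0.58 and -1.55 to 0.53 without 1 library in all macrophages/microglia) and for Mmp12 in macrophage-marker cells (-0.025 and -0.54 after mild and severe injury). Between cell types, with at least 100 cells, Mmp14 (3.10), Mmp19 (-1.41) and Timp2 (3.12) no longer passed (exact permutation test, adjusted p = 0.0625), since fewer libraries remained. With at least 5 markers the microglia-marker minus macrophage-marker differences of Mmp2 (3.81), Mmp8 (-2.62), Mmp9 (-1.52), Mmp12 (-4.13), Mmp14 (-4.84) and Timp2 (0.27) no longer passed, since fewer libraries remained, and Timp1 (-0.11) and Timp3 (0.054, and -0.16 to -0.095 without 1 library) changed sign. The injury effect in fibroblasts minus that in macrophages/microglia changed sign for Timp3 with a pseudocount of 10 CPM (-0.82) and with no doublet removal (-0.27), and for Timp2 without 1 library (-0.014 to 0.32).

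Replicate numbers did not pair the libraries: the correlation of same-numbered deviations from the group mean was between -0.22 and 0.24 over pairs of groups. Under the block Mmp14 after mild injury had an edgeR adjusted p of 0.0524, and counts moved as given above. Precision is limited by 2 libraries per group, by 1 sham library for neutrophils and fibroblasts, and by depth for Mmp19 and for Mmp14 in oligodendrocyte precursors.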

Other observations

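Ungated cells of sham 1 held Timp1 at high levels. The 4 ungated cells whose best list was Schwann cells had 55364 CPM, and the 21 whose best list was fibroblasts had 41813 CPM, against 13707 CPM in the gated fibroblasts of that library. These cells were in no comparison.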
